A study of Mus musculus with 20 samples.

Results

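A set of 40 named genes of DNA replication and cell division, out of the 36611 genes summed here, was followed through iWAT, the inguinal white fat that lies under the skin. They were chosen by name, after Mki67, Top2a and Kif11 had been seen to be higher in knockout than in control libraries on low fat diet (LFD). The knockout against control values on LFD are therefore a description of what chose the genes, and are given without a test. The study asked what loss of Tmem120a, a protein of the nuclear envelope, does to fat tissue under a rich diet. RNA came from 20 female C57BL/6 mice (floxed line on C57BL/6 N Tac, Cre line on C57BL/6 J) aged 6 months, kept for 15 weeks on either diet, in 4 groups of 5; fat made up 10.5% of LFD and 58% of the high fat diet, HFD. Control littermates carried the same floxed alleles of Tmem120a (exons 2 and 3 flanked by loxP sites) without Cre, and Ad-Tmem120a-/- mice carried Adipoq-Cre in addition. Because the Adipoq promoter is active in mature adipocytes, the gene is left intact in the other cells of the tissue, and values from whole tissue cannot tell fewer cells of a type apart from less RNA per cell.

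Most cells of adult fat do not divide, and the transcripts of a dividing minority are diluted in the RNA of whole tissue. A cell about to divide first copies its DNA with the MCM helicase, enters mitosis when cyclins A and B switch on Cdk1, builds a spindle of microtubules and motor proteins, checks that each chromosome is attached, and leaves mitosis when the anaphase-promoting complex marks the cyclins for destruction. Most of these genes are silent in resting cells and are transcribed together late in the cycle, through a promoter element known as the cell cycle genes homology region (CHR), read by the DREAM and MYB-FOXM1 complexes, and through CCAAT boxes, bound by NF-Y. Genes of DNA replication are switched on earlier, mainly by E2F.

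Promoter windows of these genes are shown because CHR and CCAAT elements are known from genes transcribed late in the cycle, and the choice of members did not use them. RefSeq windows on the assembly GRCm38.p6, reaching from 250 bases before to 50 bases after each start, were matched to 34 of the 40 members. Tpx2, Foxm1, Mcm4, Kif20a, Aurkb and Ccna2 had none. In the windows of 15 of the 34 members a CHR (TTTGAA or TTTAAA) and a CCAAT box were both found among the 250 bases before the start, on either strand, against 10.1% of the 27025 genes with a window. Singly, a CHR was found there in 17 members (28.1% of all genes) and a CCAAT box in 27 members (37.5% of all genes). Over the whole window of 300 bases a CHR was present in 27 members (30.6% of all genes). An E2F element (TTTGGCGC, TTTCCCGC, TTTGCCGC or TTTCGCGC) was present before the start in 6 members (2.16% of all genes). A match of letters is a description and does not show that a factor binds. The 6 members with the highest mean level among those with both elements are printed up to the base before the start, 5′ to 3′ on the strand of the gene, with every CHR and CCAAT box of either strand in capitals; Prc1 is given over the nearest 150 bases.
Top2a: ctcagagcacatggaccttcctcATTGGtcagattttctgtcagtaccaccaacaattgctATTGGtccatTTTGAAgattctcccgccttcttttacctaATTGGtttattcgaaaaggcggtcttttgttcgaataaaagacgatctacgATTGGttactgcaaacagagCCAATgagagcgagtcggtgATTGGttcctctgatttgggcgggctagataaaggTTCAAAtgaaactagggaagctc
Cdk1: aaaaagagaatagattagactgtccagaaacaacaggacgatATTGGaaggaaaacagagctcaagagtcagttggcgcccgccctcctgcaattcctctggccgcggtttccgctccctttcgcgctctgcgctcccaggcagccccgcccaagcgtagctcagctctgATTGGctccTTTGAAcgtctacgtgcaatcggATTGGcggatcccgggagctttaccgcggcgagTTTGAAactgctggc
Mki67: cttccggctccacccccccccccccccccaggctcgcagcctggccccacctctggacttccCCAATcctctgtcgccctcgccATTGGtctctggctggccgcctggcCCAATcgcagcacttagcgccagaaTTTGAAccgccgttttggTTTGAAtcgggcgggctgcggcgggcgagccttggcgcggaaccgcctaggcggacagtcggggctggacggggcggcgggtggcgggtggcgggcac
Prc1: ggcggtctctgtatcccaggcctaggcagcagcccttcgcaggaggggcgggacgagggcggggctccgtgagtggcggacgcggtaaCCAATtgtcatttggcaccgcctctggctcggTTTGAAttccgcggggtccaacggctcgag
Mcm5: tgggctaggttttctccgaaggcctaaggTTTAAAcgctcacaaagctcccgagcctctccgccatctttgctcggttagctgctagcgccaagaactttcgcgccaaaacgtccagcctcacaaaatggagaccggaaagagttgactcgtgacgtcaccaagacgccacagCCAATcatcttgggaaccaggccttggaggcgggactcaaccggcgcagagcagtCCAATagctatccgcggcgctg
Ube2c: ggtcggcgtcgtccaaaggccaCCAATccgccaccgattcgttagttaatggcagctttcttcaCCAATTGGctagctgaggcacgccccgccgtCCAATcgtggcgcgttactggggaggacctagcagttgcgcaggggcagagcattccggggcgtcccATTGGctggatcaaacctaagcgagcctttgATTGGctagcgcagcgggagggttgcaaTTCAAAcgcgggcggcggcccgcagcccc
Their positions on GRCm38.p6 are Top2a chr11:99024190-99024439 (minus strand), Cdk1 chr10:69352913-69353162 (minus strand), Mki67 chr7:135716380-135716629 (minus strand), Prc1 chr7:80294326-80294475 (plus strand), Mcm5 chr8:75109259-75109508 (plus strand), Ube2c chr2:164769679-164769928 (plus strand). The CHR nearest the start lay 18 to 23 bases before it in Top2a, 10 to 15 in Cdk1, 25 to 30 in Prc1 and 24 to 29 in Ube2c. In Mki67 it lay farther away, 93 to 98 bases before the start, and in Mcm5, a gene of DNA replication, the single match was 216 to 221 bases away.

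Levels are given in TPM (transcript abundance as a share of all transcripts), which are corrected for transcript length and summed over the transcripts of a gene. Each library held between 54605101 and 92387737 estimated counts, and every member averaged at least 0.5 TPM in each comparison, so none was lost to the filter on low values. The abundant transcript of Tmem120a (ENSMUST00000043378) held 49.8 to 187 TPM in the control libraries and 7.75 to 36.2 TPM in the knockout libraries, with no overlap on either diet. Over all transcripts of the gene, knockout LFD replicate 7 (74.0 TPM) and knockout HFD replicate 21 (89.7 TPM) lay among the control values. All 12 marker genes of white adipocytes were detected, with sums of 14007 to 31079 TPM. For the proliferation genes themselves, knockout LFD replicate 9 stood apart, since it held the highest level of all 20 libraries for 20 of the 40 members. Results that rest on it are given with and without it.

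Summed over the 40 members, control mice on LFD were the low group, and the other 3 groups lay at a common higher level. The sums were 103, 125, 129, 119.8 and 97.1 TPM in control LFD and 157, 199, 169, 323 and 165 TPM in knockout LFD. On HFD they were 179.7, 169, 189, 162 and 234 TPM in control and 163, 227, 221, 146 and 203 TPM in knockout mice. Every knockout library on LFD, and every library on HFD, thus had a higher summed TPM of these genes than any control library on LFD. With TMM-scaled CPM, counts relative to library size, this held for the knockout LFD libraries (415 to 901 against 237 to 372), while knockout HFD replicate 20 (327) fell within the control LFD range. The group means were 115 ± 14.2 TPM in control LFD, 203 ± 69.2 TPM in knockout LFD, 187 ± 28.4 TPM in control HFD and 192 ± 36.0 TPM in knockout HFD (SD, n = 5 each). Without replicate 9, knockout LFD stood at 172 ± 18.3 TPM (SD, n = 4), a ratio of 1.502 to control LFD, against 1.76 with it. In order of level, control LFD was lowest, followed by control HFD, knockout HFD and knockout LFD, and the ranges of the last 3 overlapped. Knockout LFD was highest only through replicate 9, without which its mean lay between those of control LFD and control HFD. Taken gene by gene, the mean of control LFD was the lowest of the 4 groups for 39 of 40 members, Foxm1 being the exception.

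**Figure D1:**
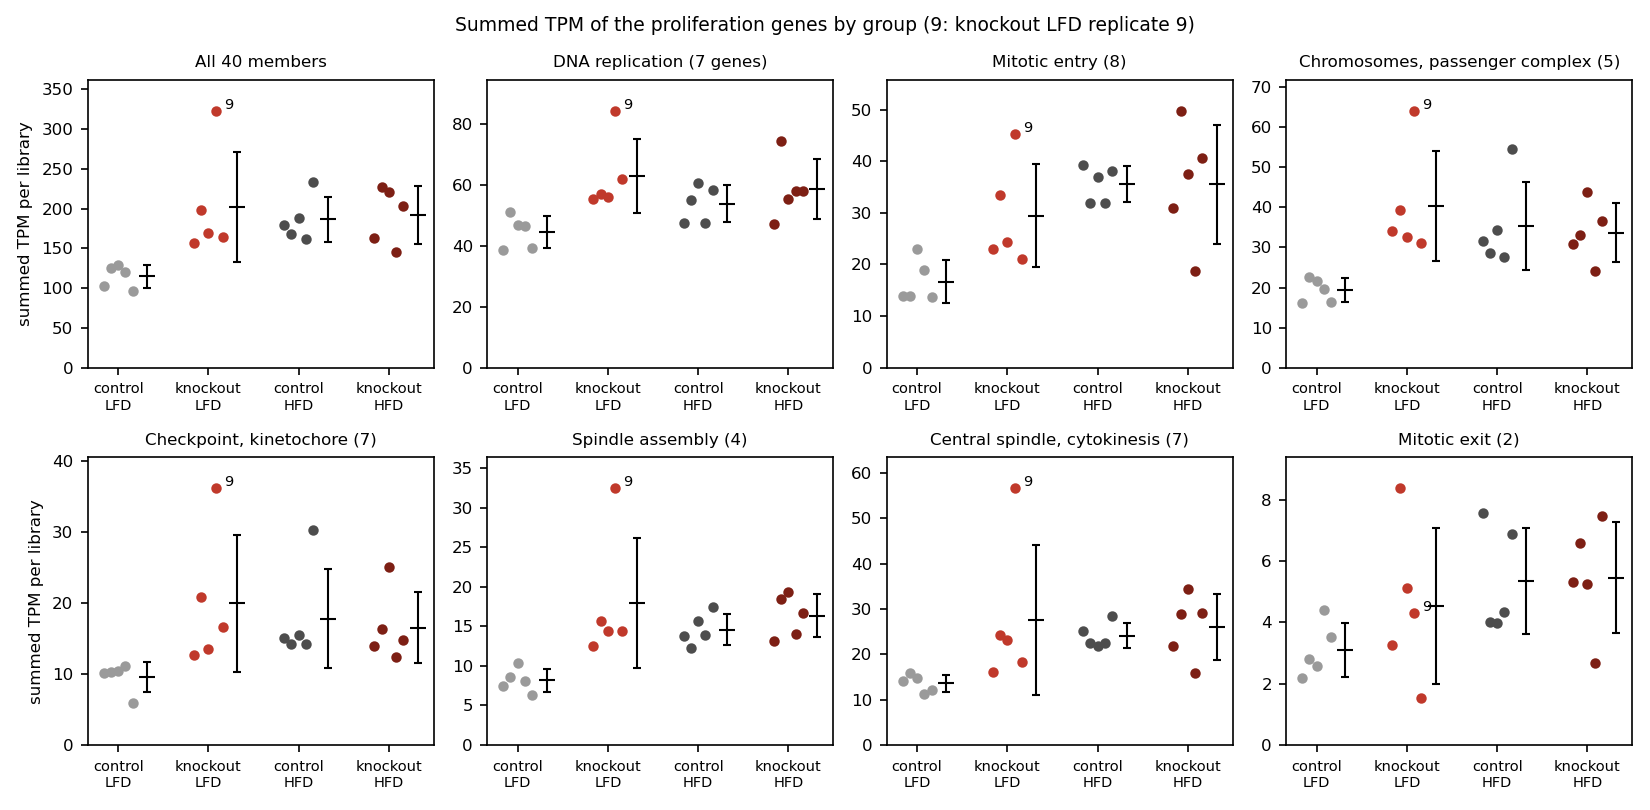
Summed TPM per library (y axis) of all 40 members and of their 7 role groups, by group (x axis); points are libraries, and the bar beside them is the mean with its SD (n = 5). The control LFD points lie lowest for the 40 members together, at 97.1 to 129 TPM, and the point marked 9 is knockout LFD replicate 9, at 323 TPM.

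On LFD the knockout mean was higher for 40 of 40 members, with a median difference of 0.58 in mean log2(TPM + 1), against 0.07 over the 15717 genes compared. Without replicate 9 it was higher for 38 members and the median difference was 0.41. All 5 knockout libraries exceeded all 5 control libraries for 12 members, while 1.3% of all genes did so. This contrast chose the members, and nothing is read from that count. The 12 were Mki67, Top2a, Kif11, Ncapd2, Ccnb1, Ccna2, Kif15, Nusap1, Birc5, Mcm4, Racgap1 and Nuf2, and 12 members were separated without replicate 9 as well. Any gene separates more easily with 4 libraries against 5, so the 1.3% does not apply to that second count.

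Mki67 encodes the Ki-67 protein that coats mitotic chromosomes and is the usual stain for cycling cells (ENSMUSG00000031004, mm9 chromosome 7 from 142881471 to 142908062, minus strand). It had 4.24, 6.11, 6.41, 4.98 and 4.05 TPM in control LFD and 9.28, 12.996, 9.07, 22.4 and 9.02 TPM in knockout LFD. In control HFD it had 7.83, 7.63, 9.37, 6.67 and 11.9 TPM, and in knockout HFD 7.79, 12.2, 10.5, 6.04 and 9.38 TPM. The LFD groups did not overlap and the HFD groups did. The LFD difference of 1.07 in mean log2(TPM + 1) was the largest of the members and close to that of Top2a, also 1.07. Without replicate 9 it was 0.85, below Ccna2 (0.91) and Top2a (0.88), and with a pseudocount of 0.1 in place of 1 Nuf2 (1.30) exceeded Mki67 (1.19).

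Top2a, the topoisomerase that untangles sister chromatids (ENSMUSG00000020914, mm9 chromosome 11 from 98854257 to 98885503, minus strand), followed the same order. Its levels were 4.96, 8.06, 8.07, 7.61 and 4.81 TPM in control LFD and 13.3, 13.5, 12.95, 25.7 and 11.8 TPM in knockout LFD. On HFD they were 10.1, 9.22, 11.6, 8.52 and 16.6 TPM in control and 11.6, 11.1, 17.4, 8.45 and 13.8 TPM in knockout mice. Replicate 9 of knockout LFD stood above its group mates, whose levels of 11.8 to 13.5 TPM all exceeded every control LFD value.

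Kif11, the motor that pushes the spindle poles apart (ENSMUSG00000012443, mm9 chromosome 19 from 37450893 to 37496349, plus strand), was separated on LFD with no library far from the rest. It had 1.57, 1.93, 2.79, 2.57 and 1.75 TPM in control LFD and 4.22, 4.53, 4.03, 5.98 and 5.29 TPM in knockout LFD. In control HFD it had 3.91, 3.57, 3.79, 3.30 and 4.83 TPM, and in knockout HFD 3.18, 4.16, 6.00, 3.08 and 4.26 TPM. Leaving out replicate 9 moved its LFD difference from 0.90 to 0.83.

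**Figure D2:**
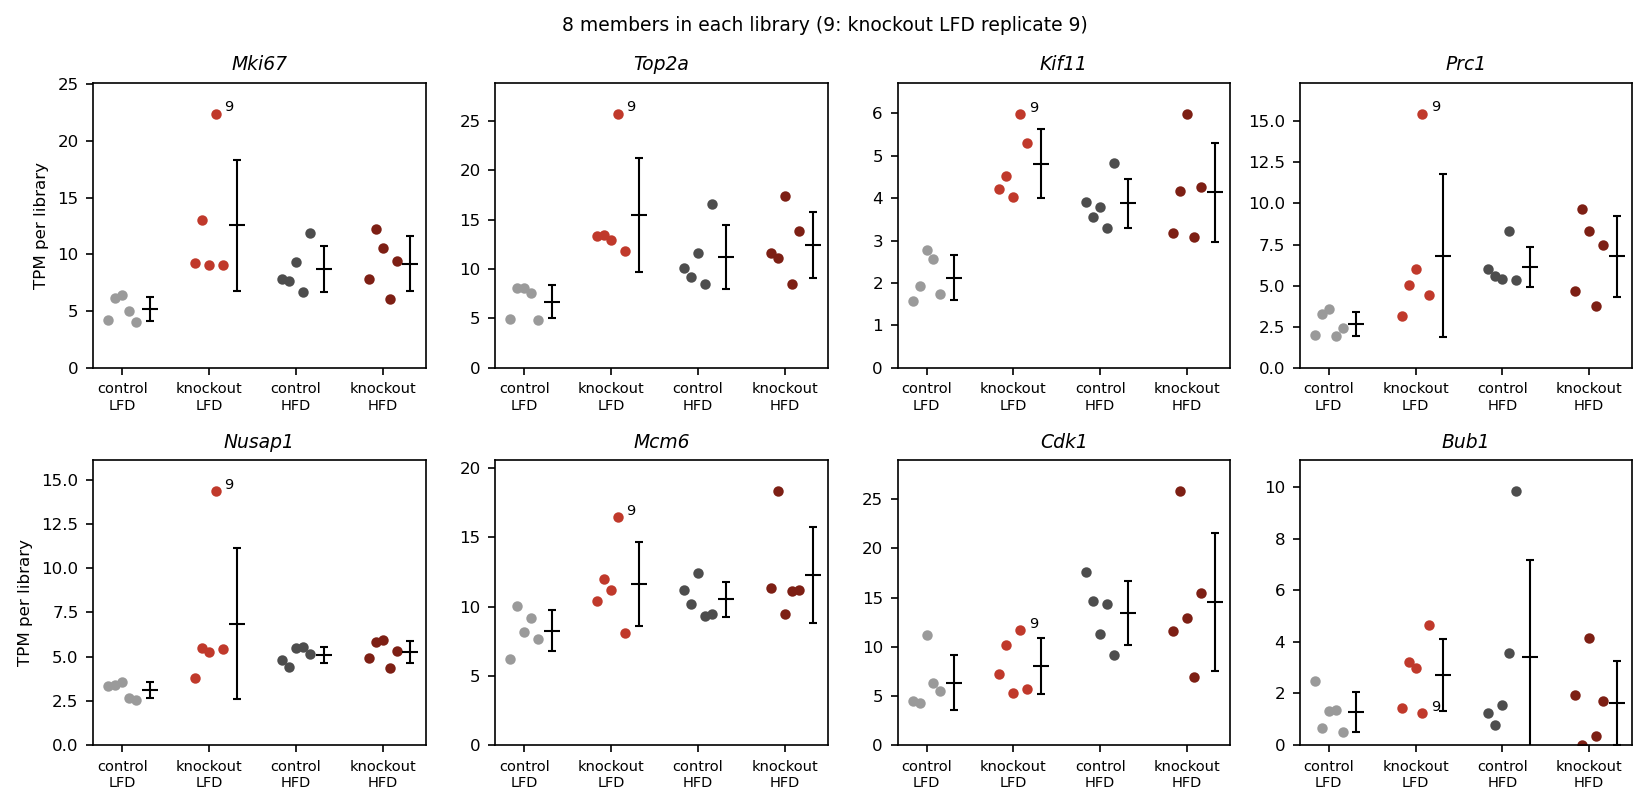
TPM per library (y axis) of 8 members by group (x axis), with points for libraries and bars for the mean and its SD (n = 5, bars cut at 0). Mki67, Top2a and Kif11, whose LFD difference chose the list, are separated between the LFD groups and overlap on HFD, while Cdk1 and Bub1 overlap on both diets.

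The members of DNA replication were the most abundant, and the ratio of their group sums on LFD, 1.42-fold, was the lowest of the 7 role groups. Their 7 genes summed to 38.6 to 51.0 TPM in control LFD and 55.3 to 84.2 TPM in knockout LFD, with ranges of 47.3 to 60.6 TPM in control HFD and 47.1 to 74.2 TPM in knockout HFD. Mcm7 and Mcm6, subunits of the helicase that opens the DNA, had mean levels of 17.4 ± 2.20 and 8.24 ± 1.48 TPM in control LFD against 23.7 ± 6.40 and 11.6 ± 3.06 TPM in knockout LFD (SD, n = 5). Both pairs of ranges overlapped, and of these 7 genes Mcm4 alone was separated on LFD. Mcm7 overlaps Cops6 and Ap4m1 on the other strand, and the libraries keep the strand.

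As a sum, the 8 genes of mitotic entry were separated between the diets in controls, and overlapped between the genotypes on LFD. They summed to 16.7 ± 4.16 TPM in control LFD, 29.4 ± 10.02 TPM in knockout LFD, 35.6 ± 3.50 TPM in control HFD and 35.5 ± 11.6 TPM in knockout HFD (SD, n = 5). Ccna2, the cyclin that drives S phase and the entry into mitosis, had 3.37 to 6.21 TPM in control LFD and 7.27 to 11.7 TPM in knockout LFD. Its range was 6.51 to 12.8 TPM in control HFD and 5.31 to 13.2 TPM in knockout HFD. Cdk1, the kinase that the mitotic cyclins activate, had overlapping LFD ranges, 4.26 to 11.1 TPM in control and 5.25 to 11.7 TPM in knockout mice, and reached 9.18 to 17.6 TPM in control HFD. A transcript annotated as a retained intron carried 69.1% of the summed TPM of Cdk1. For its protein coding transcripts alone the LFD difference was 0.59 in mean log2(TPM + 1), against 0.31 for all of them. Ccnb1 carried 57.9% of its TPM in protein coding transcripts, and for these its LFD difference was -0.05 in place of 0.65, so that its separation on LFD was not seen in those transcripts.

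Among the genes of chromosome structure, Birc5, the survivin subunit of the passenger complex that corrects faulty attachments, had 3.17 to 4.39 TPM in control LFD and 5.001 to 10.3 TPM in knockout LFD. Ncapd2, a condensin subunit, had 2.15 to 2.91 TPM and 3.37 to 5.46 TPM in the same groups. The 5 genes of this group together reached 31.2 to 64.1 TPM in knockout LFD against 16.2 to 22.7 TPM in control LFD, and 4 of the 5 were separated. Mki67 and Top2a, whose LFD difference chose the list, were among these. They held most of the sum, with means of 12.6 and 15.4 TPM out of 40.3 TPM in knockout LFD. Nothing is read from the count.

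Spindle assembly genes, with Kif11 among them, gave the highest ratio of group sums on LFD, 2.19-fold. Without replicate 9 it was 1.74-fold, below the 1.78-fold of the chromosome genes. Nusap1, which bundles spindle microtubules, had 2.52 to 3.55 TPM in control LFD and 3.78 to 14.4 TPM in knockout LFD, where replicate 9 held the 14.4 TPM and the other 4 libraries at most 5.48 TPM. Tpx2, which activates Aurora A on the spindle, had 1.18 to 3.01 TPM and 2.32 to 7.52 TPM, and those ranges overlapped. Kif15, another motor of the bipolar spindle, was separated at a low level, with at most 1.02 TPM in control LFD and at least 1.32 TPM in knockout LFD.

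Within the spindle checkpoint and kinetochore group, Nuf2, part of the NDC80 complex that grips microtubules, had 0.672 to 1.60 TPM in control LFD and 1.87 to 7.05 TPM in knockout LFD, and was the one member of 7 that was separated. Bub1b, which encodes the checkpoint protein BubR1, overlapped, with 1.59 to 4.49 TPM and 2.79 to 5.56 TPM. Bub1, a checkpoint kinase, varied widely: it ranged from 0 TPM in knockout HFD replicate 18 to 9.87 TPM in control HFD replicate 15, and transcripts annotated as protein coding carried 36.3% of its TPM. For Ttk, another checkpoint kinase, the LFD difference of 0.58 fell to 0.25 without replicate 9.

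In the group of the central spindle and cytokinesis, Prc1, which bundles the microtubules between the parting chromosomes, had 1.94 to 3.55 TPM in control LFD. In knockout LFD it had 3.17, 5.06, 5.99, 15.5 and 4.44 TPM, so that 1 library fell within the control range and 1 stood far above. Racgap1, a regulator of the cleavage furrow, was separated, with 1.65 to 2.80 TPM against 3.42 to 9.80 TPM. Anln, the furrow scaffold anillin, had the smallest LFD difference of all members, 0.17, and without replicate 9 it was -0.09. Its levels on HFD were 4.49 to 5.34 TPM in control and 2.25 to 7.49 TPM in knockout mice. Kif23, a motor of the central spindle, held 12.2 TPM in replicate 9 and 2.92 to 4.21 TPM in the other 4 knockout LFD libraries.

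The 2 genes of mitotic exit had the smallest median difference on LFD, 0.27. Ube2c, the enzyme that supplies ubiquitin to the anaphase-promoting complex, had 1.70 to 3.60 TPM in control LFD and 1.13 to 7.29 TPM in knockout LFD. Cdc20, which activates that complex, had 0.389 to 0.790 TPM and 0.396 to 1.19 TPM. Ube2c overlaps Tnnc2, a muscle troponin, on the other strand, and Tnnc2 ranged from 0.619 to 590 TPM over the 20 libraries.

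**Figure D3:**
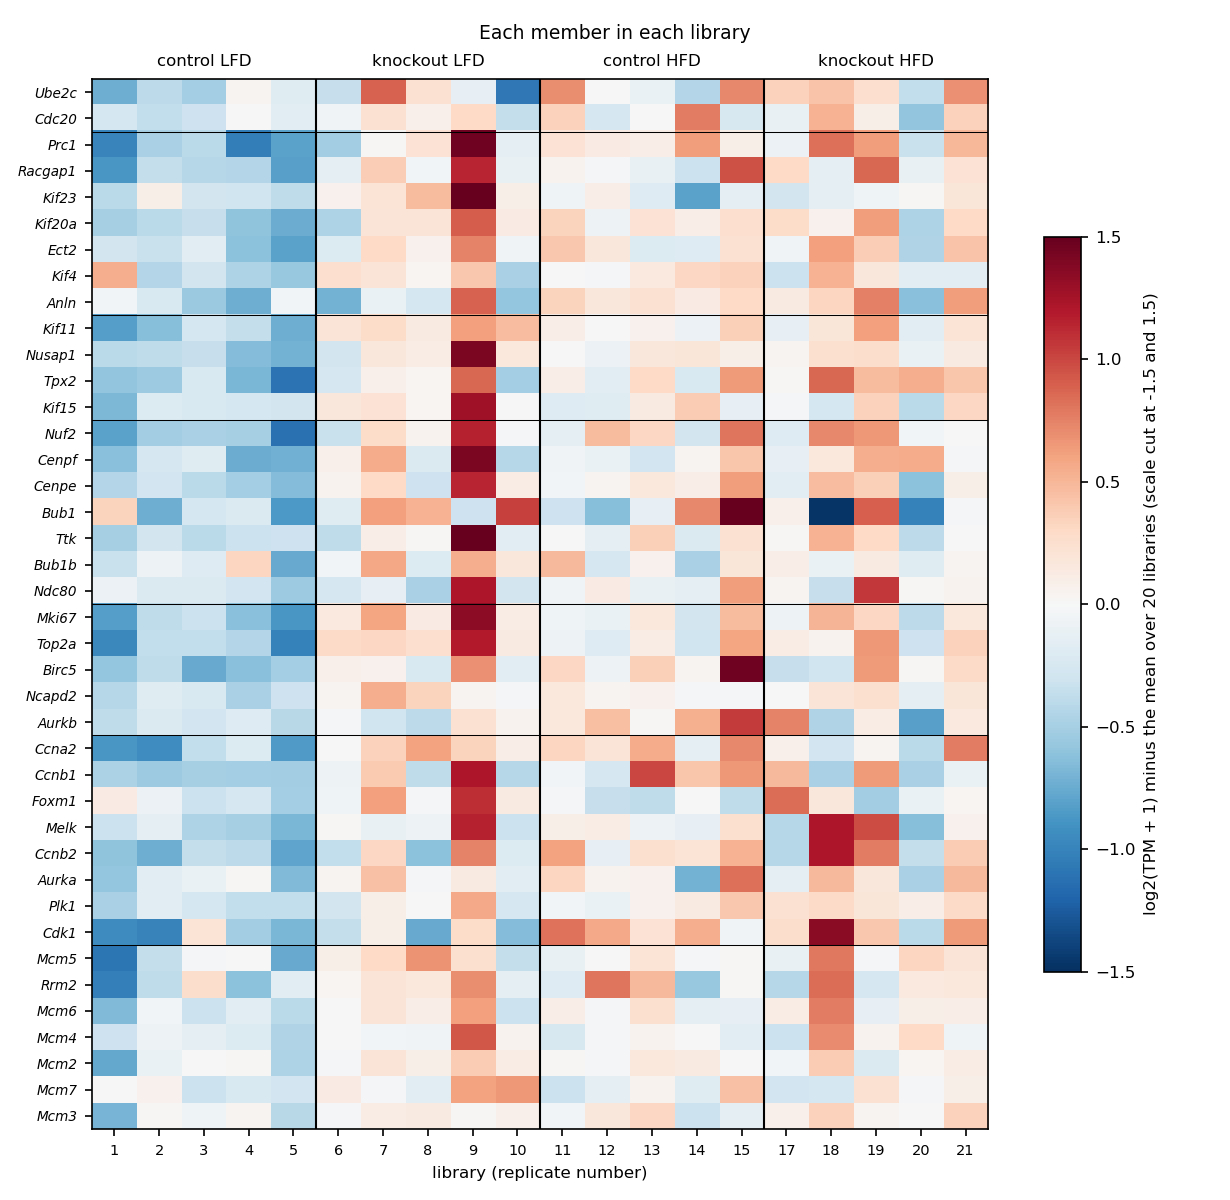
Each member (rows, by role) in each library (columns, by group), coloured by log2(TPM + 1) minus its mean over the 20 libraries (scale cut at -1.5 and 1.5). The 5 control LFD columns are mostly blue, and the column of knockout LFD replicate 9 is the reddest, holding the highest level for 20 of 40 members.

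The comparison of genotypes on HFD used libraries that did not enter the choice of the members, and was tested on estimated counts with edgeR's quasi-likelihood test. None of the 40 members passed an adjusted p under 0.1 (Benjamini-Hochberg, over all genes), and 0 had an unadjusted p under 0.05, beside 0.00657% and 4.66% of the 15228 genes tested. The smallest unadjusted p among members was that of Mcm5 (0.15, or 0.999 adjusted over all genes, edgeR). DESeq2 called 0 members and 0.657% of the genes. The 1 gene called by edgeR was Gm11868, which is no member. Tmem120a, the floxed gene itself, missed the threshold with edgeR (log2 fold change -1.67, adjusted p = 0.173). With DESeq2 it passed (adjusted p = 3.17e-06). A gene that edgeR did not call may therefore still differ. In TPM the HFD groups overlapped for every member, while 0.538% of all genes were wholly higher and 0.151% wholly lower in knockout mice. For Mki67 the test gave 0.09 as log2 fold change (standard error 0.211, 95% interval -0.37 to 0.55), for Top2a 0.09 (standard error 0.213, -0.38 to 0.55) and for Kif11 0.10 (standard error 0.225, -0.39 to 0.58). The upper bounds of these 3 intervals lay below 1 on the log2 scale.

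Over the 40 members the log2 fold change on HFD had a median of 0.09, against 0.01 over all genes tested, and was above 0 for 29, where the mean of log2(TPM + 1) was higher for 24. It ranged from -0.80 for Bub1 (95% interval -2.65 to 1.05) to 0.42 for Melk, a kinase of unsettled function (95% interval -0.73 to 1.56). The narrowest interval was that of Ncapd2 (-0.20 to 0.38). By role, all 7 genes of DNA replication lay above 0 in the main test, with a median of 0.20 and none past the threshold, while on the scale of mean log2(TPM + 1) 4 of the 7 did. Mcm4 had 0.30 (95% interval -0.14 to 0.74), Mcm5 0.28 (-0.12 to 0.67) and Mcm6 0.22 (-0.15 to 0.58). The medians of the other 6 groups lay between 0.01 and 0.16. Prc1, at 0.30 (95% interval -0.20 to 0.81), was the highest of the central spindle genes, and Birc5, at -0.46 (-1.25 to 0.32), was the lowest of the chromosome genes. On the scale of mean log2(TPM + 1), Tpx2 had the largest HFD difference, 0.34, and Bub1 the smallest, -0.63. For protein coding transcripts alone these were 0.11 and -0.35. For Cdk1 the counts gave a log2 fold change of -0.28 (95% interval -0.88 to 0.32) and the TPM a difference of 0.03. A p that misses the threshold does not show that the groups are alike, and the intervals give what these libraries leave possible.

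**Figure D4:**
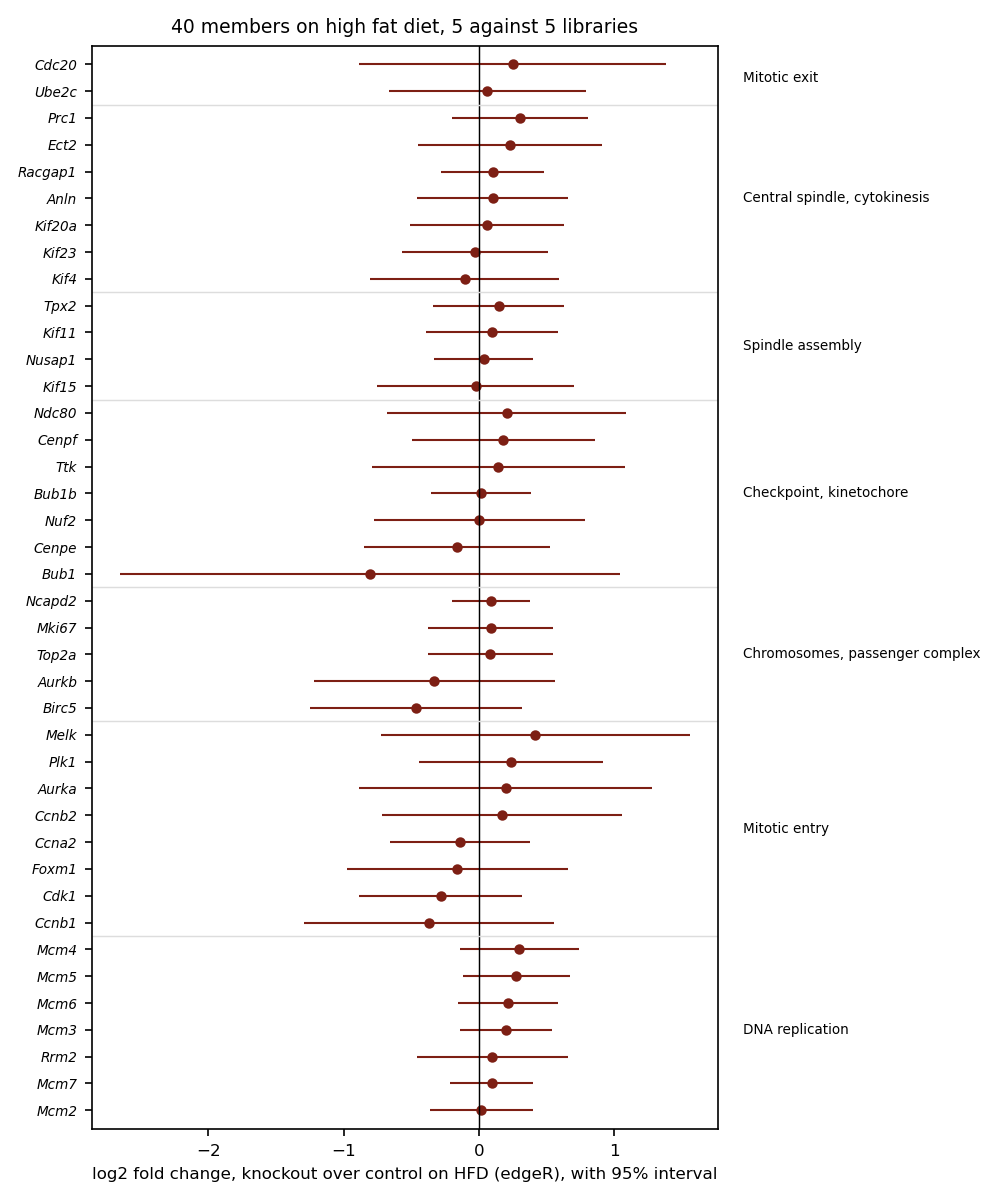
Log2 fold change of knockout over control on HFD (x axis) for the 40 members (y axis, by role), from edgeR on 5 against 5 libraries, with 95% intervals. The interval of every member crosses 0, and those of Mki67, Top2a and Kif11 end between 0.55 and 0.58.

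The diets were compared within each genotype as a description, since the LFD libraries entered the choice of the members. In controls the HFD mean was higher for 39 of 40 members, with a median difference of 0.51 in mean log2(TPM + 1) against 0.13 over all genes. All 5 HFD libraries exceeded all 5 LFD libraries for 21 members, beside 8.32% of all genes. With TMM-scaled CPM the median over all genes was 0.0038 in place of 0.13, the median of the members 0.48 and the number separated 14. The share of 8.32% holds for TPM and not for CPM, so nothing is read from the 14. In knockout mice the HFD mean was higher for 17 of 40 members, with a median of -0.03, and 0 were separated in either direction, beside 5.01% of all genes that were wholly higher and 2.94% wholly lower. Without knockout LFD replicate 9 the knockout mean on HFD was higher for 27 members, with a median of 0.10, and 1 was separated. The genotype difference on LFD exceeded that on HFD for 40 of 40 members, with a median of 0.51, a value that the choice of members on LFD enters and that was not tested.

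Of single members, Mki67 had an HFD minus LFD difference of 0.64 in controls and -0.36 in knockout mice, and Top2a of 0.66 and -0.27. For Cdk1 it was 1.01 in controls and 0.73 in knockout mice. For its protein coding transcripts alone these differences were 1.02 and -0.12. Foxm1, the transcription factor of the mitotic genes, had close means on both diets in controls, 0.581 ± 0.268 TPM on LFD and 0.554 ± 0.208 TPM on HFD (SD, n = 5). Its protein coding transcripts, which held 47.7% of its TPM, had means of 0.290 ± 0.126 TPM and 0.484 ± 0.121 TPM there, and with protein coding transcripts alone the HFD mean was higher for 40 of 40 members in controls.

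**Figure D5:**
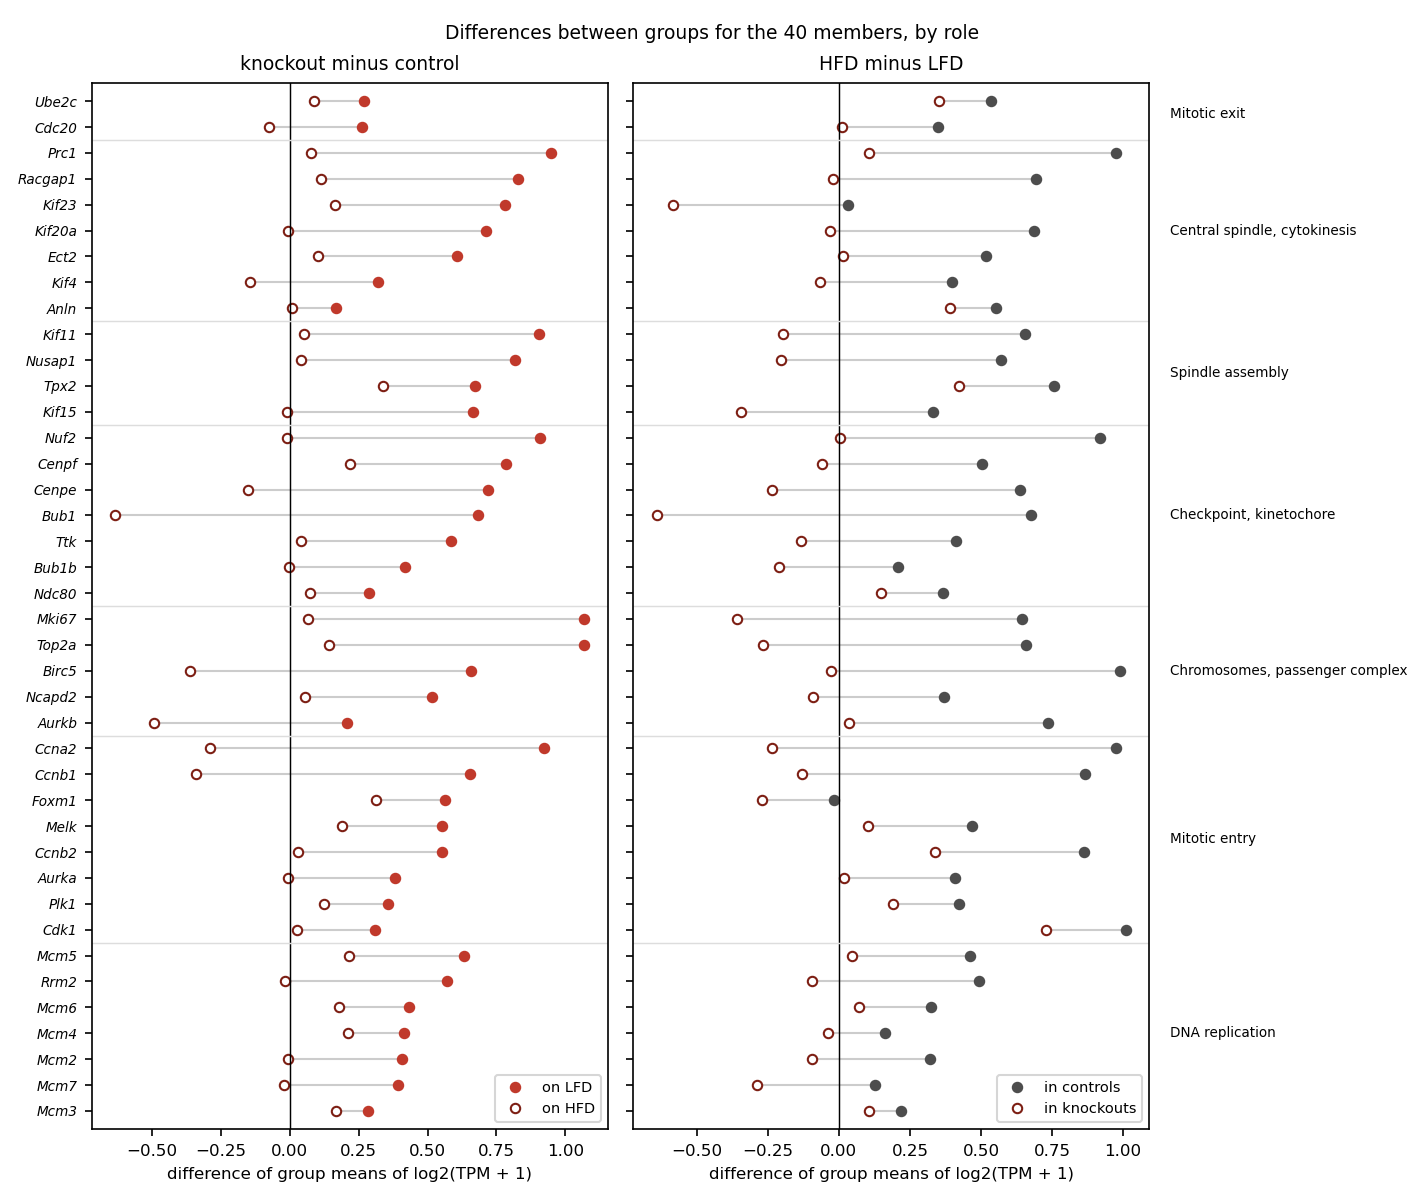
Differences of group means of log2(TPM + 1) (x axis) for the 40 members (y axis, by role), on the left knockout minus control on LFD (filled) and HFD (open), on the right HFD minus LFD in control (filled) and knockout mice (open). The filled points on the left lie above 0 for all 40 members, and the open points scatter around 0, with 24 above it on the left and 17 on the right.

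Genes of the cell cycle outside the 40 members were read from lists compiled with earlier results of these data known. Of 56 genes of the G2 and M phases, 46 could be compared on LFD, where the knockout mean was higher for 44 with a median difference of 0.49, and of 30 genes of S phase 28 could be compared, 25 of them higher with a median of 0.33. The sums of the G2 and M genes were 147 to 193 TPM in control LFD and 195 to 403 TPM in knockout LFD, and 221 to 304 TPM and 215 to 333 TPM in control and knockout mice on HFD. Those of the S phase genes overlapped on LFD, with 172 to 216.2 TPM in control and 215.95 to 368 TPM in knockout mice, and their mean was highest in knockout HFD, at 317 TPM. The G1 cyclins and kinases summed to 84.6 to 137 TPM in control LFD and 93.9 to 158 TPM in knockout LFD, and the cell cycle inhibitors to 147 to 198 TPM and 159 to 204 TPM, with overlap in both. On HFD 0 genes of the 5 lists passed the test (27 S phase genes, 47 G2 and M genes, 19 genes of the E2F, MYB and DREAM complexes, 7 of G1 and 11 inhibitors were tested with edgeR). Unadjusted p values under 0.05 were reached by 6 of them, a share near the 4.66% of all genes, 3 higher (Tyms, Prim1 and Rfc4) and 3 lower (Fen1, Gtse1 and Tfdp2) in knockout mice, named after their values were seen. Rfc4 was separated between the genotypes on both diets. It had at most 9.85 TPM in control LFD and at least 13.2 TPM in knockout LFD. On HFD it had at most 11.6 TPM in control and at least 12.96 TPM in knockout mice. The ranges of Tyms and Gtse1 overlapped on both diets. Why Rfc4 differed was not tested.

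The D cyclins, which start the G1 phase, had means in control LFD and knockout LFD of 16.3 and 21.4 TPM for Ccnd1, 27.3 and 32.5 TPM for Ccnd2, and 7.34 and 6.603 TPM for Ccnd3. On HFD their log2 fold changes were 0.23, -0.31 and -0.26. Myc had 6.999 and 8.53 TPM on LFD, and the kinases Cdk4, Cdk6 and Cdk2 had HFD log2 fold changes of 0.10, 0.34 and 0.22. Among the inhibitors of cyclin-dependent kinases, Cdkn1a (p21) had 2.93 and 2.11 TPM in control LFD and knockout LFD and 7.49 and 7.12 TPM in control HFD and knockout HFD. The knockout HFD mean rests on replicate 21, which held 20.4 TPM of Cdkn1a, while the other 4 libraries held 1.78 to 5.59 TPM and the control HFD libraries 5.24 to 11.3 TPM. Cdkn1b (p27) had 31.7 and 37.6 TPM on LFD and 38.0 and 44.4 TPM on HFD. Cdkn2c (p18) was the most abundant, at 69.2 and 64.5 TPM on LFD and 65.3 and 78.3 TPM on HFD. The HFD log2 fold changes of Cdkn1c, Cdkn2b, Cdkn2d, Trp53, Btg1, Btg2 and Wee1 lay between -0.21 and 0.40. Chek1, the checkpoint kinase of stalled replication, had 1.06 TPM in control LFD and 4.99 TPM in knockout LFD, where replicate 9 held 15.7 TPM and the other 4 libraries 1.44 to 2.65 TPM.

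Levels of the members were then compared from mouse to mouse. Over the 20 libraries, after the mean of each group was removed from log2(TPM + 1), the median correlation of 2 members was 0.37, and 702 of 780 pairs were above 0. Without replicate 9 of knockout LFD the median was 0.28 and 637 pairs were above 0. These correlations share libraries and depth and are given as a description. Bub1 was least like the mean of the other members (r = 0.02), followed by Ncapd2 (0.25), Mcm3 (0.26) and Aurkb (0.28). The 10 genes outside the list whose deviations were most like the mean deviation of the members had r between 0.85 and 0.93 over 20 libraries. Without replicate 9 their r lay between 0.75 (Chek1) and 0.88 (Gm10762). Among these 10 genes were Gm10762, Ckap2l, Dlgap5, Shcbp1, Cep55, Hmmr, Kntc1, Chek1 and Atp6v1c1. Ckap2l, Dlgap5 and Hmmr encode proteins of the spindle, Cep55 acts in the final cut between daughter cells and Kntc1 at the kinetochore. Atp6v1c1, a subunit of the proton pump of lysosomes, is not a gene of division, and its r without replicate 9 was 0.81.

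Markers of other cell types were read beside these values, and their part in the result was not tested. The sums of all 13 marker lists overlapped between the LFD groups and between the HFD groups. The 18 lymphocyte markers were all detected, and the knockout mean on LFD was higher for 18 of 18, with a median difference of 0.79. Their sum ranged from 15.1 to 311 TPM in control LFD, 172 to 353 TPM in knockout LFD, 43.7 to 309 TPM in control HFD and 116 to 312 TPM in knockout HFD. As deviations from the group means over 20 libraries, log2 of the lymphocyte sum plus 1 had an r of 0.08 with that of the members, and the G2 and M genes had an r of 0.89. Without replicate 9 of knockout LFD these were 0.17 and 0.81. In control LFD the lymphocyte sums were 15.1, 220.3, 281, 311 and 70.2 TPM beside member sums of 103, 125, 129, 119.8 and 97.1 TPM, so that the 2 libraries with the lowest lymphocyte sums also had the lowest member sums. In knockout LFD they were 353, 264.5, 172, 198 and 332 TPM beside 157, 199, 169, 323 and 165 TPM. Of the genes listed for germinal centre B cells, which divide rapidly, 8 of 8 were detected, with sums of 19.2 to 29.3 TPM in control LFD and 22.5 to 27.4 TPM in knockout LFD. In control LFD replicates 1 to 5 the sums were 20.3, 29.3, 19.2, 23.9 and 20.5 TPM, beside lymphocyte sums of 15.1 to 311 TPM. Detection of these genes does not show that such cells were present. Marker sums of macrophages were 590 to 980 TPM and 586 to 1027 TPM in the LFD groups, those of fat progenitors 501 to 741 TPM and 491 to 604 TPM, and those of endothelium 140 to 239 TPM and 175 to 230.4 TPM. On HFD, control mice had a higher sum than on LFD for endothelium (229 to 357 TPM, ranges overlapping). Ranges were apart for basal epithelium (244 to 314 TPM against 158 to 234 TPM on LFD). They were also apart for the list of lipid-associated macrophages (4872 to 5924 TPM against 1874 to 4665 TPM on LFD). That list, which includes Lpl and Cd36, summed to 4665, 3120, 2634, 1874 and 3559 TPM in control LFD replicates 1 to 5. The macrophage list summed to 590, 893, 945, 980 and 782 TPM there. These orders were opposite, and the former is not read as a level of such cells. In knockout mice the lipid-associated macrophage list summed to 2385 to 3624 TPM on LFD and 3703 to 5346 TPM on HFD, also apart. Fat progenitor sums were apart there too (491 to 604 TPM on LFD and 693 to 773 TPM on HFD), while the members' sums overlapped between the diets. The markers of white adipocytes had a lower mean in knockout mice for 12 of 12 on LFD (median difference -0.24), whereas without replicate 9 the knockout mean was higher for 5 of 12 (median -0.13). On HFD their log2 fold change was above 0 for 1 of 12 (median -0.22, edgeR, 0 past the test). Markers of skeletal muscle fibres summed to 8.50 to 3138 TPM in control LFD and 12.7 to 934 TPM in knockout LFD. The highest sum of all 20 libraries was that of control LFD replicate 5. In control HFD they summed to 7.68 to 50.2 TPM and in knockout HFD to 41.3 to 1374 TPM. All 10 had an unadjusted p under 0.05 on HFD (edgeR, 4.66% of all genes). Past the adjusted threshold were 0 of the 10 with edgeR, 5 with edgeR without the filter and 9 with DESeq2, each higher in knockout mice. Markers of epidermis and hair summed to 191.6 TPM in knockout LFD replicate 7 and 86.1 TPM in knockout HFD replicate 18, beside member sums of 199 and 227 TPM. Every other library held at most 17.9 TPM of them, and knockout LFD replicate 9 held 4.62 TPM. As deviations from the group means their r with the members was 0.12, or 0.27 without replicate 9.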

How the data were processed

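RNA from iWAT was made into libraries by the authors with a stranded total RNA kit after removal of ribosomal RNA, and sequenced as paired reads. Per the labels, transcripts were quantified with Salmon 0.13.1 against Ensembl release 67 transcripts of mm9, and the submitters' processing notes also name STAR 2.5.3. The deposited tables hold TPM and estimated counts per transcript for 20 libraries. Of 96533 transcripts, 94334 matched the annotation and were summed to genes, and transcripts without a match held 0.377% to 0.581% of the counts.

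The members and all gene lists were chosen with earlier results of these data known. Genotypes were compared on HFD with the quasi-likelihood test of edgeR 4.0.16 (R 4.3.3, TMM scaling) on gene sums of estimated counts rounded to whole numbers, on genes whose TPM averaged 0.5 or more in the 10 libraries compared, and called at a Benjamini-Hochberg adjusted p under 0.1. DESeq2 1.42.0 and limma 3.58.1 served as alternatives, next to length offsets, no filter, and leaving out each library. The other comparisons are differences of group means of log2(TPM + 1), with no test, and folds on that scale understate changes of low genes. The labels number the animals without giving litters, so p-values measure the spread between these libraries. Named in full were Mki67, Top2a and Kif11, the 2 members of each role with the highest mean TPM, the members with the extreme differences on each diet, the 10 most similar genes (1 is not reported here), and G1 cyclins and inhibitors. Other members named (Ncapd2, Birc5, Kif15, Racgap1, Kif23, Ttk, Ccnb1, Melk, Mcm4, Mcm5 and Foxm1) were picked after their values were seen. The count test was tested on simulated data. Precision is set by depth and by 5 libraries a group.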

Additional observations from a re-analysis of the deposited data

Results flagged for a closer look

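Within each group of 5 libraries, the highest and lowest values of the summed members and of the 16 members named by rule were compared with the gap to their nearest neighbour (Dixon's criterion, 0.71 for 5 values). Of 68 such groups 7 held a library that stood apart, where chance gives about 1 in 20.

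Knockout LFD replicate 9 accounted for 5 of the 7. Its summed TPM of the members was 323, against 157 to 199 in the other 4 libraries. It held 25.7 TPM of Top2a (others 11.8 to 13.5), 14.4 TPM of Nusap1 (others 3.78 to 5.48), 15.5 TPM of Prc1 (others 3.17 to 5.99) and 8.25 TPM of Anln (others 2.08 to 3.70). The reason was not tested.

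Control HFD replicate 14 held 8.31 TPM of Prc1, against 5.37 to 5.99 TPM in its group. Knockout HFD replicate 18 held 18.4 TPM of Mcm6, against 9.45 to 11.3 TPM.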

How the results depend on the processing

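No paired analysis was possible because the groups share no replicate numbers. None of the members passed the test on HFD under any alternative. Over all genes, the 1 call of edgeR on HFD became 100 with DESeq2, 26 without the filter, 5 with length offsets and 3 with limma, and 1 to 58 when each library was left out (58 without knockout HFD replicate 21, 10 without control HFD replicate 12, 2 without control HFD replicate 15). The HFD log2 fold changes of 10 of the 40 members changed sign with length offsets, most of all Foxm1 (-0.16 to 0.86, unadjusted p = 0.123, edgeR). Sign changes of the members named by rule were as follows. With length offsets and limma they were 0.11 and 0.028 for Cdk1, -0.037 and -0.0015 for Bub1b, -0.19 and -0.076 for Cdc20, -0.042 and -0.021 for Mcm7, and for Nuf2 -0.015 and -0.0098, with -0.0093 without the filter. Leaving out each library gave -0.051 to 0.25 for Mki67, -0.074 to 0.27 for Top2a, -0.12 to 0.21 for Kif11, -0.049 to 0.090 for Nusap1, -0.052 to 0.10 for Bub1b, -0.19 to 0.21 for Nuf2, -0.10 to 0.28 for Anln, -0.092 to 0.28 for Ube2c and -0.046 to 0.50 for Cdc20. The cause was not tested.

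In controls, the median diet difference of the members was 0.76 with a pseudocount of 0.1 (0.51 with 1), and that of the log2 sum 0.49 with TMM-scaled CPM (0.69 in TPM). The median difference between the genotype differences was 0.77 with a pseudocount of 0.1 (0.51 with 1). In knockout mice 17 members were higher on HFD, and 10 to 27 when each library was left out (27 without knockout LFD replicate 9, 10 without knockout LFD replicate 10, 11 without knockout HFD replicate 18), with 0 to 1 separated. On LFD, leaving out each library gave median differences of 0.41 to 0.66 and 12 to 18 separated members. With protein coding transcripts alone, added after seeing the data, 39 members were higher in knockout mice on LFD and 13 were separated. No share over all genes stands beside these counts of separated members, and nothing is read from them. Members near 1 TPM rest on few reads, which limits what a single library shows.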
